A study of Mus musculus with 6 samples.

Results

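The genes described here encode the extracellular matrix: the collagens, the laminins, the glycoproteins that bind them, and the proteoglycans. They were taken as a fixed list of 49 gene symbols, and all 49 were found among the 56691 gene identifiers of a mouse RNA sequencing table. Of these, 16 build the basement membrane, 29 belong to the interstitial matrix and 4 to neither, namely Col7a1, Col8a1, Sdc1 and Sdc4. The table held 6 libraries in 2 groups of 3. The CTM group held captured micro-emboli, that is, tumour cells circulating as clusters, taken on a capture chip from mice whose breast cancer had reached the lung. The 4T1 group was the mouse mammary carcinoma line 4T1 grown in serum-containing medium, and the library titles name a low adherence culture. The labels give the same culture protocol for both groups. The strain, age and number of the mice, the cells per library and any genetic change of the cells were not given in the sources used here. Nothing in the labels tells whether a group's libraries came from separate mice or cultures. The p-values thus measure only how far these libraries spread, and that spread may be technical.

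Basement membranes are thin sheets on which epithelial cells rest. Laminins, trimers of an alpha, a beta and a gamma chain, polymerise on the cell surface, and nidogen and the proteoglycan perlecan tie this layer to a network of collagen IV. The interstitial matrix beneath is built from fibrils of collagens I, III and V and from fibronectin, and is made mainly by fibroblasts. Carcinoma cells secrete laminins and fibronectin themselves, and integrins, dystroglycan and syndecans anchor cells to both kinds of matrix.

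Each library held between 69178212 and 71595766 deposited estimated counts. Levels are given as normalised CPM, which puts the counts of all libraries on a common total after TMM scaling. Genes of epithelial carcinoma cells were present in every library, Krt8 at 733 to 778 normalised CPM in 4T1 and 533 to 571 in CTM, and Krt18 at 839 to 950 and 960 to 1091, while Epcam, Cldn7 and Esrp1 stayed below 1 in all 6. Of 7 tested epithelial markers Krt19 was called higher (log2 1.52) and Krt7 (-1.66), Krt8 (-0.45) and Cdh1 (-2.0) lower. Over all genes tested 14.2% were called higher and 13.7% lower. Libraries 2 and 3 of each group were close to each other (r = 0.996 in 4T1 and 0.995 in CTM between log2 values across genes, which are not independent replicates), and 4T1 replicate 1 stood apart from the other 4T1 libraries (r = 0.977). In these bulk samples fewer cells of a type and less RNA per cell cannot be told apart. Growth in an animal, circulation and capture all set the CTM group off from the cultured line, and their effects cannot be told apart either.

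Of the 49 members, 42 passed the filter on low counts and were tested. In CTM 7 were higher and 8 lower by the quasi-likelihood test of edgeR (adjusted p under 0.05). These made up 35.7% of those tested, where 27.9% of all 16414 genes tested were called. The background was 14.2% for higher and 13.7% for lower genes, so the members' share lay near that of the whole table. The counts moved with single libraries, to 9 higher and 7 lower without 4T1 replicate 1, 3 and 4 without 4T1 replicate 2, 3 and 5 without 4T1 replicate 3, 4 and 4 without CTM replicate 2, and 4 and 5 without CTM replicate 3. They were 13 and 13 without both libraries numbered 1, and 1 and 4 with the close libraries 2 and 3 of each group averaged to 1 sample. The higher members were Lamb2, Hspg2, Lama5 and Lamc1 of the basement membrane and Fn1, Col5a3 and Ecm1 of the interstitial matrix. The lower members were Nid1 and Col18a1 of the basement membrane, Sparc, Mgp, Ltbp1, Col1a1 and Fbn1 of the interstitial matrix, and Col8a1. A fall of at least 2-fold was called for 5 members, Fbn1, Nid1, Col8a1, Mgp and Sparc, and no member rose that far. Called changes of that size in either direction made up 9.57% of all genes tested, 738 of them higher and 832 lower. Fbn1 passed the filter on low counts through its 4T1 levels, so its direction was tied to that filter.

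The basement membrane and the interstitial matrix were set side by side by counts and medians, without a test between them. Of 14 tested basement membrane genes 4 were higher, 2 lower and 8 did not pass, with a median log2 fold change of -0.013. Of 24 tested interstitial genes 3 were higher, 5 lower and 16 did not pass, with a median of -0.36. The median over all genes tested was -0.024, and 14.2% of them were higher and 13.7% lower. Many interstitial genes were barely present: 13 of the 29 averaged below 1 normalised CPM over all libraries, against 3 of the 16 basement membrane genes. Among members averaging at least 5 normalised CPM, a limit chosen after values were seen, 12 basement membrane genes had a median of -0.013, with 4 higher and 1 lower. The 14 interstitial genes at that level had a median of -0.20, with 3 higher and 3 lower. Groups did not overlap in 9 tested members that lay above and 12 that lay below in CTM, where 48.3% of all genes tested did not overlap. Together the 49 members took 2.35%, 2.0% and 2.04% of the normalised counts in the 4T1 libraries and 2.59%, 2.18% and 2.31% in the CTM libraries.

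**Figure D1:**
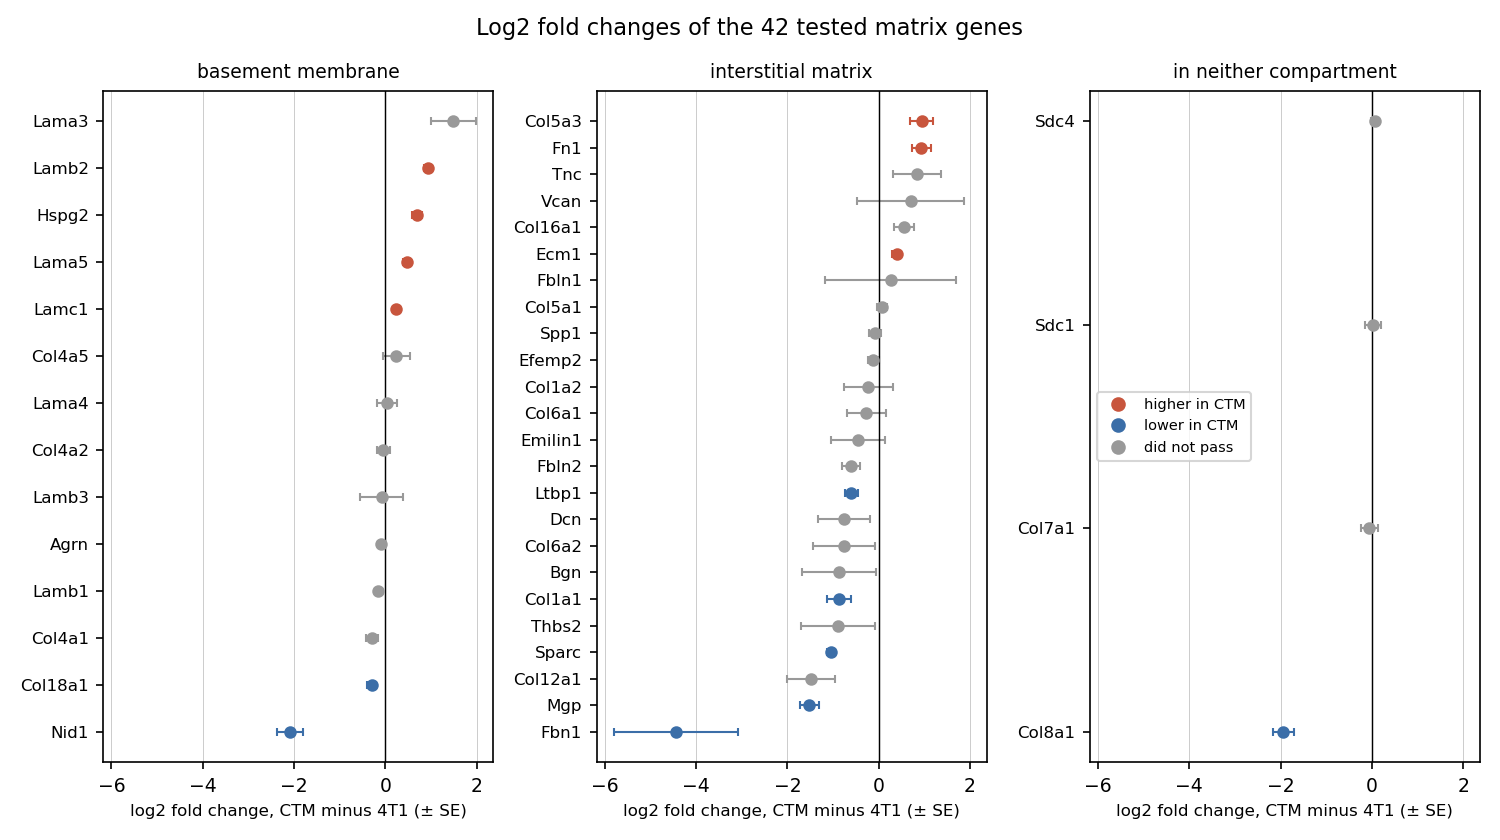
Log2 fold change, CTM minus 4T1, of the 42 tested matrix genes in 3 panels, with bars of 1 SE. Red points are the 7 genes called higher, blue points the 8 called lower and grey points those that did not pass. In the basement membrane panel the called genes Lamb2, Hspg2, Lama5 and Lamc1 lie right of 0 and Nid1 lies alone far to the left.

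Of 7 tested laminin chains 3 were higher in CTM, none was lower and 4 did not pass, with 0.24 as the median log2 fold change. Over all genes tested 14.2% were higher and 13.7% lower. Lamb2, the beta 2 chain, measured 158, 143 and 141 normalised CPM in the 4T1 libraries, against 286, 278 and 277 in the CTM libraries. All CTM libraries lay above all 4T1 libraries, and the spread within each group was a small part of the gap. The fold difference was 1.90 (log2 0.93 ± 0.083 SE, edgeR adjusted p = 0.000824). Lama5, the alpha 5 chain that epithelia place in their basement membranes, was at 1806, 1851 and 1948 in 4T1, against 2759, 2379 and 2591 in CTM. It was 1.38-fold higher (log2 0.46 ± 0.079 SE, edgeR adjusted p = 0.00612), and the groups did not overlap. Lamc1, the gamma 1 chain shared by most laminins, was at 780, 785 and 801 in 4T1, against 908, 929 and 959 in CTM, a 1.18-fold difference (edgeR adjusted p = 0.0379).

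Lamb1, the beta 1 chain, spanned 960 to 1062 normalised CPM in 4T1 and 879 to 942 in CTM. It lay below in every CTM library by a narrow margin and did not pass (log2 -0.16 ± 0.077 SE, edgeR adjusted p = 0.166). Lama3 and Lamb3 belong to the epithelial laminin of hemidesmosomes. Lama3 was at 0.25, 0.706 and 0.623 normalised CPM in 4T1, against 0.895, 1.71 and 1.80 in CTM, low in every library. The groups did not overlap, but the gene did not pass (log2 1.48 ± 0.49 SE, edgeR adjusted p = 0.063). It passed in 5 of 15 alternatives, DESeq2 (adjusted p = 0.0255), limma voom (0.00407), the replicate block, counts divided by 4 and the fit without both libraries numbered 1. Lamb3 was at 71.9, 23.7 and 23.4 in 4T1, against 51.4, 28.7 and 32.6 in CTM, high in both libraries numbered 1. It did not pass (edgeR adjusted p = 0.919), but was called higher in the fit without both libraries numbered 1. Lama4, the alpha 4 chain known from vessels and muscle, was at 12.8 to 20.8 in 4T1 and 15.3 to 21.1 in CTM. Lama1, the alpha chain of early embryos, was at 0 in all 4T1 libraries and reached 0.0294 in CTM, and was not tested. The calls of Lama5 and Lamb2 held with any library left out, while that of Lamc1 was lost without 4T1 replicate 2 or 3 or CTM replicate 2 or 3 and ranged in adjusted p from 0.000622 to 0.324. The Lamc1 call was also lost by DESeq2 (adjusted p = 0.0812) and with library totals alone (edgeR adjusted p = 0.146). Ranges of adjusted p given here and for other genes run over all alternatives, those by DESeq2 and limma voom included, other than the 2-fold minimum.

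Levels per kilobase of exon allow chains to be compared, and by them Lama5 was the highest of the member alpha chains and Lamb1 the highest of the member beta chains in both groups. In 4T1 the mean levels were 164 normalised CPM per kilobase for Lama5, 103 for Lamb1, 24.2 for Lamb2 and 95.3 for Lamc1. Lama4 stood at 1.49, Lamb3 at 5.99 and Lama3 at 0.049 normalised CPM per kilobase. The ratio of the level of Lamb2 to that of Lamb1 per kilobase was 0.268, 0.22 and 0.217 in 4T1 and 0.499, 0.516 and 0.48 in CTM. Every CTM library lay above every 4T1 library, and the ratio went from 0.235 ± 0.0286 to 0.498 ± 0.0176 (SD, n = 3 each; exact permutation test, two-sided, p = 0.1, the smallest that 3 against 3 allows, and 0.12 after Benjamini-Hochberg adjustment over 6 chain ratios). The ratio of Lama5 to Lamc1 went from 1.72 ± 0.0421 to 2.01 ± 0.179 (SD, n = 3 each) without overlap, with the same exact permutation p.

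**Figure D2:**
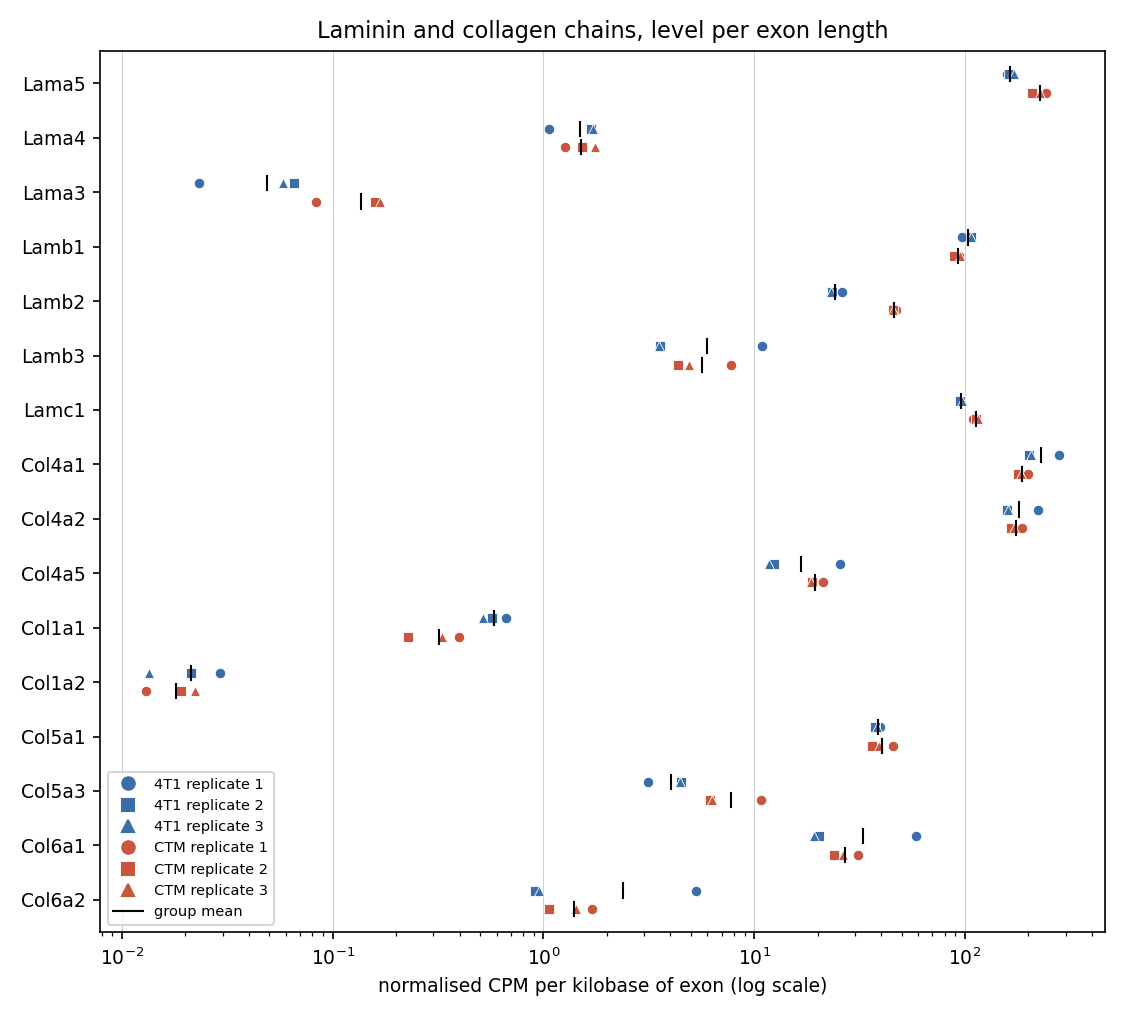
Normalised CPM per kilobase of exon, on a log axis, of laminin and collagen chains in the 3 4T1 libraries (blue) and the 3 CTM libraries (red), with black ticks at group means. Lama5, Lamb1, Lamc1, Col4a1 and Col4a2 lie near or above 100, while Lama3, Col1a1 and Col1a2 lie below 1.

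Hspg2 encodes perlecan, the large heparan sulphate proteoglycan of basement membranes. It was at 865, 950 and 1063 normalised CPM in 4T1, against 1652, 1378 and 1590 in CTM. The lowest CTM library lay above the highest 4T1 library, and the gene was 1.60-fold higher (log2 0.68 ± 0.11 SE, edgeR adjusted p = 0.00479). This call held with any library left out. Agrn, which encodes agrin, the other large proteoglycan of these sheets, overlapped between groups at 705 to 774 in 4T1 and 657 to 706 in CTM (log2 -0.095 ± 0.077 SE, edgeR adjusted p = 0.40).

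Nid1 encodes nidogen 1, the link between laminin and collagen IV, and was lower in CTM. It was at 4.74, 3.18 and 4.64 normalised CPM in 4T1, against 0.822, 0.931 and 1.19 in CTM. Levels were low in both groups, yet all CTM libraries lay below all 4T1 libraries, by 4.26-fold (log2 -2.09 ± 0.28 SE, edgeR adjusted p = 0.00253). The call held in all 15 alternatives that tested the gene. Nid2, the second nidogen, was at 0 in all 4T1 libraries and in CTM replicate 1 and reached 0.175 in CTM, and was not tested.

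The collagen IV chains that form the network of the sheet did not pass. Col4a1 was at 2087, 1506 and 1529 normalised CPM in 4T1, against 1480, 1338 and 1370 in CTM (log2 -0.29 ± 0.14 SE, edgeR adjusted p = 0.157). Its groups did not overlap, by a narrow margin, and 4T1 replicate 1 was the highest. Col4a1 passed as lower by limma voom (adjusted p = 0.0271) and in the fit without both libraries numbered 1. Col4a2 was at 1471, 1048 and 1060 in 4T1, against 1230, 1096 and 1131 in CTM and overlapped (log2 -0.05 ± 0.14 SE, edgeR adjusted p = 0.826). The ratio of Col4a1 to Col4a2 per kilobase was nearly constant within a group, at 1.27 ± 0.0109 in 4T1 and 1.08 ± 0.00861 in CTM (SD, n = 3 each; exact permutation test, two-sided, p = 0.1, adjusted 0.12). Col4a5, a chain of a separate collagen IV network, was at 172, 83.2 and 79.1 in 4T1, against 143, 126 and 124 in CTM. It did not pass (edgeR adjusted p = 0.591), but without 4T1 replicate 1 its log2 fold change was 0.69 with an edgeR adjusted p of 0.00122. Its ratio to Col4a1 per kilobase was 0.0701 ± 0.0186 in 4T1 and 0.104 ± 0.00318 in CTM (SD, n = 3 each; exact permutation test, two-sided, p = 0.1, adjusted 0.12). Col18a1, whose cleaved end is endostatin, was at 783, 830 and 834 in 4T1, against 589, 697 and 699 in CTM, 1.23-fold lower (edgeR adjusted p = 0.0493). That call lay at the threshold and was lost when any library other than 4T1 replicate 1 was left out, with adjusted p from 0.00035 to 0.256 over the alternatives.

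Promoter windows, from 250 bases before to 50 after an annotated start, were found for 38 members in RefSeq, build GRCm38.p6. They are shown for the perlecan and laminin beta 2 genes, which rose, and for the nidogen 1 and Sparc genes, which fell. The collagen IV pair is also shown, whose starts lie 21 bases apart on opposite strands. As annotated, the transcripts of this pair overlap at their starts. The stretch printed for the pair is the 78 bases common to both windows, shorter than the other windows. Capitals mark ACGTG or GCGTG, the core letters of hypoxia response elements, and GGGCGG, the letters of a GC box, each on either strand.
Hspg2 (chr4:137468553-137468852, plus strand): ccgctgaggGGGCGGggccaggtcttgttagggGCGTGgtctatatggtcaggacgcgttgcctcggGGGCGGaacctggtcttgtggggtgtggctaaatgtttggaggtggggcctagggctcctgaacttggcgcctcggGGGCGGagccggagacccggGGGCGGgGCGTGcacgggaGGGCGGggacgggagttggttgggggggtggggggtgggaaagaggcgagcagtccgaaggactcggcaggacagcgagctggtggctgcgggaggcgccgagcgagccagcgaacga
Lamb2 (chr9:108479612-108479911, plus strand): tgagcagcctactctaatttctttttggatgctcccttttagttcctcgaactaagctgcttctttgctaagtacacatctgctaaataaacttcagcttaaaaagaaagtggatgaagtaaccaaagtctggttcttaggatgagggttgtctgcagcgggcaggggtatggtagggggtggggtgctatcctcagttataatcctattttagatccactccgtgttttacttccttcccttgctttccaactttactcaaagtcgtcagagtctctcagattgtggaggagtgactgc
Nid1 (chr13:13437352-13437651, plus strand): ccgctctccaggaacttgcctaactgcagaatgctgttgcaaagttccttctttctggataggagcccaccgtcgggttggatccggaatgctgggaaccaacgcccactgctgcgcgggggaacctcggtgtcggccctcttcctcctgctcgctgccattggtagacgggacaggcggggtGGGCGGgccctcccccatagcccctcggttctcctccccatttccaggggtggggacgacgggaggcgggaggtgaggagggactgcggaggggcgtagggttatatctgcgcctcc
Sparc (chr11:55420031-55420330, minus strand): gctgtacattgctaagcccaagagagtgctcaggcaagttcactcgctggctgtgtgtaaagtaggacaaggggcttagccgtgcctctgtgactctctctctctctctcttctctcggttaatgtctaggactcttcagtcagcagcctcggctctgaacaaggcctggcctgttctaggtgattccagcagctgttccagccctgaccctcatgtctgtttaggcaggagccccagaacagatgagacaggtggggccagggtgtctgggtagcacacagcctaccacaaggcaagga
Col4a1 and Col4a2, shared (chr8:11312777-11312854, plus strand): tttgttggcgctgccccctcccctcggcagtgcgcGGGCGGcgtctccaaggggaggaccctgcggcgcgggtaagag

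The Hspg2 window held 2 GCGTG and 5 GGGCGG matches, with no overlap between the motifs. The Nid1 window and the shared collagen IV stretch held 1 GGGCGG match each, and the Lamb2 and Sparc windows held no match to any of the 3 motifs. ACGTG or GCGTG was found in 20 of the 38 members with a window, against 46.7% of all 27025 genes with windows, and in 2 of the 5 members called higher and 1 of the 6 called lower. GGGCGG was found in 27 of the 38 members, against 38.2% of all genes. TATAAA, the letters of a TATA box, was found in 6 members against 15.7% of genes, and TGANTCA, those of an AP-1 site, in 3 against 8.97%. These matches describe the letters of the windows, with no evidence of binding.

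Collagens I and III, the main fibril formers made by fibroblasts, were low in both groups. Col1a1 was at 4.36, 3.74 and 3.39 normalised CPM in 4T1, against 2.60, 1.49 and 2.17 in CTM. All CTM libraries were lower, by 1.83-fold (log2 -0.88 ± 0.27 SE, edgeR adjusted p = 0.0477), and the call was lost when any library other than CTM replicate 1 was left out, with adjusted p from 0.0034 by limma voom to 0.221 by edgeR over the alternatives. Col1a2, the partner chain of collagen I, stayed at or below 0.361 in every library, as did Col3a1, which reached 0.338. Fibroblast markers were read beside them. Lum and Pdpn were at 0 in all libraries, Thy1, Fap, Dpt and Tcf21 stayed at or below 0.0873, and Acta2 at or below 0.262. The summed level of the 10 fibroblast markers was 182 to 194 normalised CPM in 4T1 and 257 to 269 in CTM, most of it Pdgfra. All 3 tested fibroblast markers were called, where 27.9% of all genes tested were called. By edgeR Pdgfra was higher (log2 0.63, adjusted p = 0.00515), Pi16 higher (1.49, 0.00232) and Pdgfrb lower (-1.07, 0.0155). Their part in these results was not tested.

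The chains of collagens V and VI differed in level among themselves. Col5a1 was at 319 to 336 normalised CPM in 4T1 and 308 to 388 in CTM and did not pass (edgeR adjusted p = 0.665), while Col5a2 stayed at or below 0.118. Col5a3, the third chain of collagen V, was at 21.4, 30.6 and 30.4 in 4T1, against 73.3, 42.04 and 42.84 in CTM. Every CTM library was higher, CTM replicate 1 most of all, and the gene rose 1.92-fold (log2 0.94 ± 0.25 SE, edgeR adjusted p = 0.032). The call was lost without any library other than CTM replicate 3, with adjusted p from 0.000513 to 0.101 over the alternatives. Col6a1 was at 256, 89.3 and 84.2 in 4T1, against 136, 105 and 116 in CTM. Col6a2 was at 44.1, 7.60 and 7.96 in 4T1, against 14.2, 8.87 and 11.9 in CTM. Neither passed (edgeR adjusted p = 0.668 and 0.439), and in both 4T1 replicate 1 was the highest library by far. Col6a3, the third collagen VI chain, stayed at or below 0.117 in every library. Per kilobase, Col6a1 averaged 32.7 and Col6a2 2.39 normalised CPM in 4T1. The ratio of Col6a2 to Col6a1 overlapped between groups (0.0616 ± 0.0251 and 0.0513 ± 0.00594, SD, n = 3 each; exact permutation p = 0.8), and that of Col5a3 to Col5a1 did not (0.105 ± 0.0222 and 0.189 ± 0.0408; exact permutation p = 0.1, adjusted 0.12).

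Among collagens that decorate fibrils, Col16a1 was at 186, 334 and 341 normalised CPM in 4T1, against 439, 404 and 420 in CTM. The groups did not overlap, with 4T1 replicate 1 the lowest library, but the gene did not pass (edgeR adjusted p = 0.106). Without 4T1 replicate 1 its log2 fold change was 0.32 with an edgeR adjusted p of 0.00743. Col12a1 stayed at or below 0.57 in every library. Col8a1, a short-chain collagen known from vessel walls and the cornea, was at 439, 295 and 288 in 4T1, against 67.1, 100.2 and 99.0 in CTM. Every CTM library was far below every 4T1 library, a 3.84-fold fall (log2 -1.94 ± 0.23 SE, edgeR adjusted p = 0.00163), and the call held in all 16 alternatives. Among endothelial markers Emcn was at 0 throughout and Kdr, Vwf and Cldn5 stayed at or below 0.22. Of 4 tested 2 were called lower by edgeR, as Col8a1 was, where 13.7% of all genes tested were lower. Cdh5 was at 5.67 to 6.13 in 4T1 and 2.04 to 3.03 in CTM (edgeR adjusted p = 0.00611). Egfl7 was at 23.2 to 26.7 in 4T1 and 13.03 to 18.9 in CTM (edgeR adjusted p = 0.0186). The 9 endothelial markers summed to 30.8 to 33.9 in 4T1 and 15.6 to 22.6 in CTM, and their part in the fall of Col8a1 was not tested. Col7a1, the anchoring fibril collagen, overlapped at 25.5 to 31.8 in 4T1 and 23.7 to 36.0 in CTM (edgeR adjusted p = 0.837).

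Fn1 encodes fibronectin, which integrins assemble into fibrils on the cell surface. It was at 3276, 1970 and 2067 normalised CPM in 4T1, against 5377, 4046 and 4534 in CTM. Both libraries numbered 1 were the highest of their group, and the groups did not overlap. The gene was 1.91-fold higher in CTM (log2 0.93 ± 0.21 SE, edgeR adjusted p = 0.0169). The call was lost without 4T1 replicate 2 or 3 or CTM replicate 1 or 3, with adjusted p from 8.9e-06 to 0.105 over the alternatives. Liver cells also make fibronectin, and transcripts of hepatocytes were present in all libraries: their 11 markers summed to 907 to 968 normalised CPM in 4T1 and to 254 to 824 in CTM. All 11 lay below in every CTM library, although none passed the test, while Fn1 lay above. Over all genes tested, 3861 of 16414 lay below in every CTM library. The part of the hepatocyte markers in the Fn1 result was not tested.

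Spp1 encodes osteopontin, a secreted ligand of integrins and Cd44, and was the member with the most counts. It was at 6006, 5146 and 5152 normalised CPM in 4T1, against 6136, 4606 and 4636 in CTM. The groups overlapped, with both libraries numbered 1 high, and no difference was called (log2 -0.084 ± 0.13 SE, edgeR adjusted p = 0.665). Macrophages are another source of both Spp1 and Fn1. Of 9 macrophage markers 7 were tested, of which 2 were called higher, 5 did not pass and 4 had a negative log2 fold change. Over all genes tested 14.2% were called higher. Cd68 and Mrc1 rose, Cd68 from 23.5, 26.4 and 28.4 to 351, 155 and 147 normalised CPM. Csf1r was at 32.6, 0.692 and 0.595 in 4T1, against 0.543, 0.0739 and 0.175 in CTM. Cd14 was at 32.33, 18.92 and 18.96, against 13.75, 18.86 and 15.83. Both lay below in every CTM library without passing. Adgre1, Lyz2 and the C1q genes stayed at or below 0.51 in every library. The 9 markers summed to 47.9 to 90.0 in 4T1 and 167 to 368 in CTM, and their part in these results was not tested.

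Sparc, which encodes a collagen-binding regulator of cell adhesion, was at 522, 440 and 436 normalised CPM in 4T1, against 226, 222 and 230 in CTM. The CTM libraries were close together and all below the 4T1 libraries, a 2.06-fold fall (log2 -1.04 ± 0.097 SE, edgeR adjusted p = 0.000919). Mgp, the matrix Gla protein that restrains calcification, was at 62.0, 57.3 and 56.6 in 4T1, against 13.8, 24.7 and 22.8 in CTM. It was lower in every CTM library, lowest in CTM replicate 1, by 2.87-fold (log2 -1.52 ± 0.21 SE, edgeR adjusted p = 0.00322). Both calls held in all 16 alternatives. Sparc is also carried by platelets, whose transcripts Pf4 and Ppbp stayed at or below 0.236 and 1.96 normalised CPM. Of 4 tested platelet markers 2 were called higher by edgeR, where 14.2% of all genes tested were higher. They were Itga2b (2.94 ± 0.217 in 4T1 and 8.16 ± 1.34 in CTM, SD, n = 3 each; edgeR adjusted p = 0.00245) and Gp1ba (0.102 ± 0.0575 and 0.646 ± 0.106; edgeR adjusted p = 0.0127). Gp1ba passed the filter on low counts only through its CTM libraries, so its direction was tied to that filter. The 10 platelet markers summed to 3.49 to 5.38 in 4T1 and 8.22 to 11.5 in CTM, higher where Sparc was lower, and their part in the result was not tested.

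Smaller changes were called for Ecm1 and Ltbp1. Ecm1, a matrix protein that binds perlecan and fibulins, was at 368, 311 and 316 normalised CPM in 4T1, against 428, 433 and 443 in CTM, 1.31-fold higher (edgeR adjusted p = 0.0199). Ltbp1, which tethers latent TGF-beta to the matrix, was at 409, 491 and 543 in 4T1, against 270, 326 and 353 in CTM, 1.52-fold lower (edgeR adjusted p = 0.0192). Groups did not overlap in either gene. Ecm1 lost its call without 4T1 replicate 2 or 3 or CTM replicate 2 or 3, and Ltbp1 without 4T1 replicate 2 or 3 or CTM replicate 1 or 2, with highest adjusted p of 0.24 and 0.141, both by edgeR, and lowest of 3.44e-05 and 0.000125, both by limma voom.

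**Figure D3:**
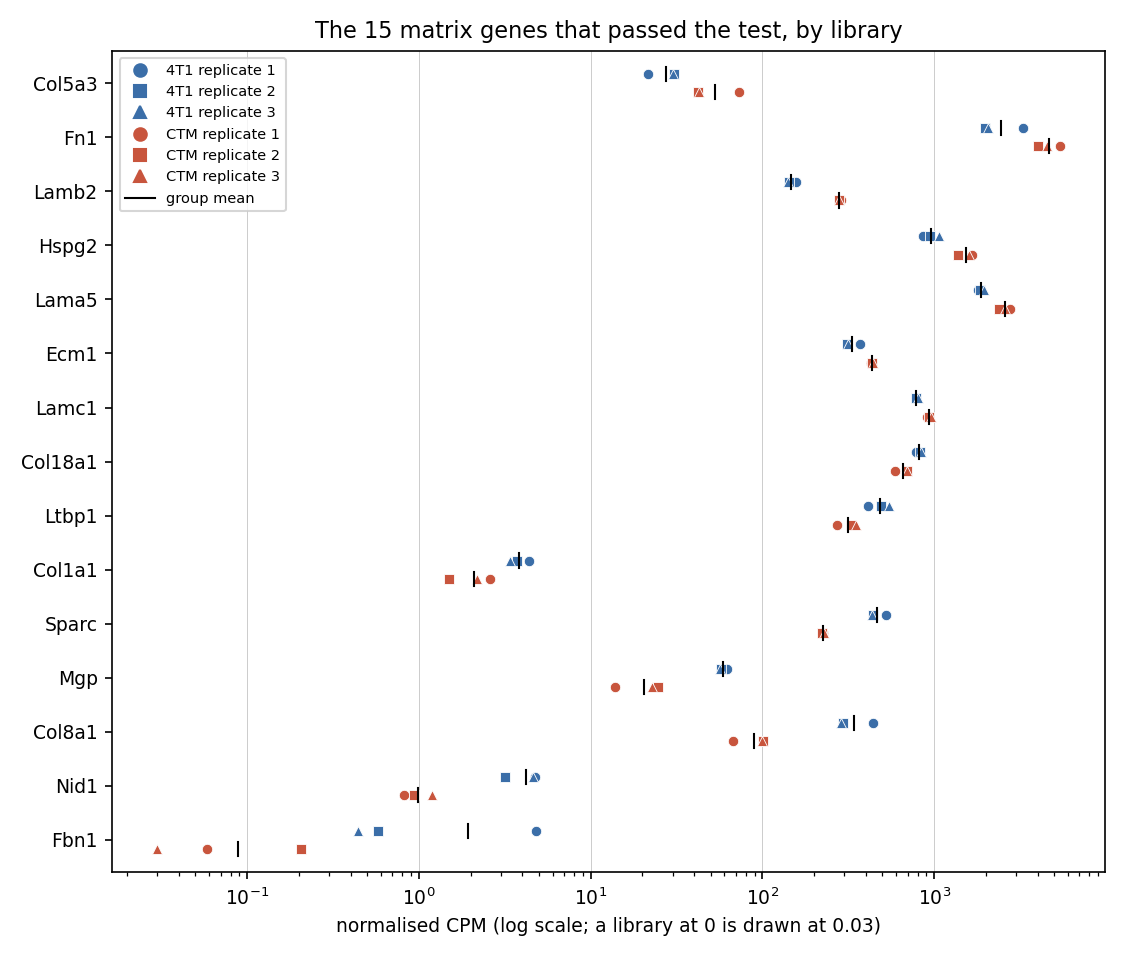
Normalised CPM, on a log axis, of the 15 called matrix genes in each 4T1 library (blue) and CTM library (red), ordered from the largest rise to the largest fall, with black ticks at group means. In every gene shown the 3 CTM libraries lie on 1 side of the 3 4T1 libraries. The genes were picked by a test on these same libraries, which favours such a gap. Of all genes tested 48.3% did not overlap. Fbn1 is the gene with the widest spread, 4T1 replicate 1 at 4.79 and the other 4T1 libraries at 0.581 and 0.443.

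Elastic fibre and microfibril genes were mostly low. Fbn1, the fibrillin of microfibrils, was at 4.79, 0.581 and 0.443 normalised CPM in 4T1, against 0.0587, 0.207 and 0 in CTM. The groups did not overlap, but most of the 4T1 mean came from replicate 1. The CTM libraries alone would not have passed the filter on low counts, so the direction was tied to that filter. The fitted log2 fold change was -4.43 ± 1.36 (SE, edgeR adjusted p = 0.0491), and it went to -2.51 without 4T1 replicate 1, -3.84 without CTM replicate 3 and -5.96 without CTM replicate 2. The call was lost when any library other than 4T1 replicate 3 was left out, with adjusted p from 0.0249 by DESeq2 to 0.156 by edgeR over the alternatives. Fbln2, a fibulin that binds both fibrillin and basement membranes, was at 289, 223 and 225 in 4T1, against 211, 130 and 145 in CTM. It lay below the 4T1 range in every CTM library and did not pass (log2 -0.60 ± 0.20 SE, edgeR adjusted p = 0.063). It passed in 6 of 16 alternatives, and its adjusted p ran from 6.37e-05 to 0.247 over all 16. Efemp2, a fibulin needed for elastic fibres, overlapped at 113 to 135 in 4T1 and 102 to 127 in CTM (edgeR adjusted p = 0.50). Fbln1, Efemp1 and Emilin1 stayed at or below 0.334 in every library.

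None of the remaining members passed. Tnc, the adhesion-modulating glycoprotein tenascin C, was at 0.374 to 0.415 normalised CPM in 4T1 and 0.325 to 1.15 in CTM, and Postn, which encodes periostin, stayed at or below 0.177. The proteoglycan genes Bgn, Dcn and Vcan were at or below 0.941 in every library. Thbs2, an inhibitor of vessel growth, was at 16.6, 3.24 and 2.15 in 4T1, against 1.56, 5.00 and 5.31 in CTM and overlapped (edgeR adjusted p = 0.458). In the fit without both libraries numbered 1 it was called higher. The cell-surface syndecans were present at high levels and overlapped between groups: Sdc1 ranged over 270 to 393 in 4T1 and 280 to 366 in CTM (log2 0.025 ± 0.18 SE), and Sdc4 over 751 to 834 and 818 to 877 (log2 0.061 ± 0.079 SE), with edgeR adjusted p of 0.932 and 0.599.

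In several members 4T1 replicate 1 stood apart from the other 4T1 libraries. Relative to the mean of 4T1 replicates 2 and 3 it was 9.36-fold higher for Fbn1, 6.15-fold for Thbs2, 5.67-fold for Col6a2, 3.06-fold for Lamb3, 2.96-fold for Col6a1 and 2.12-fold for Col4a5. In other members it was lower, at 0.55 of that mean for Col16a1, 0.63 for Lama4 and 0.70 for Col5a3. Without it Col6a1 changed sign, to a log2 fold change of 0.45 with an edgeR adjusted p of 0.0217, and Lamb1 passed at -0.21 with an edgeR adjusted p of 0.0239. All 15 called members had the same direction between the libraries numbered 1 as between those numbered 2 and 3, although they were called on these same libraries.

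**Figure D4:**
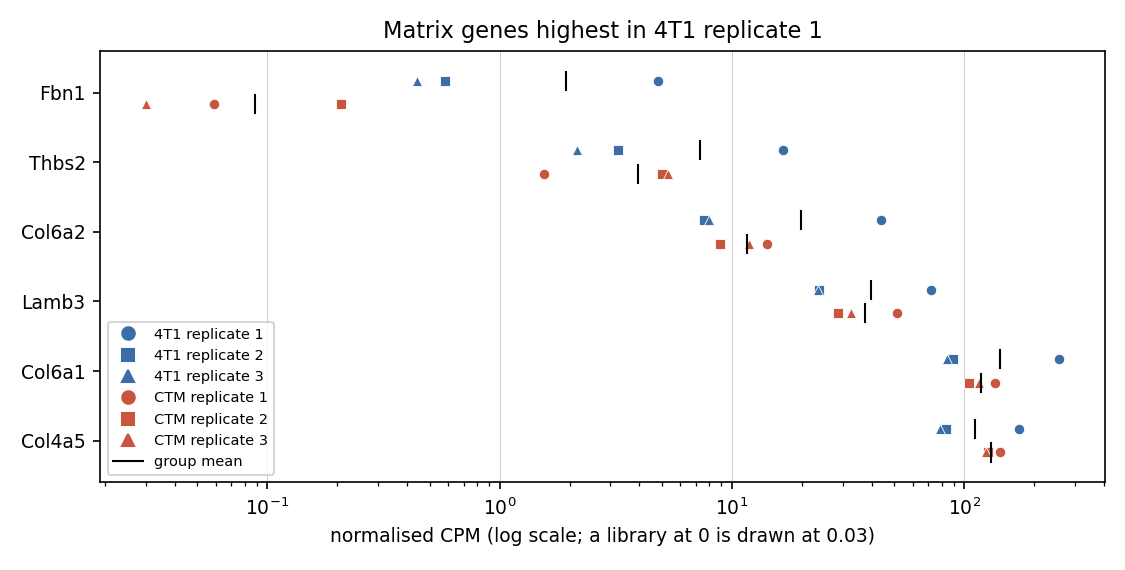
Normalised CPM, on a log axis, of 6 matrix genes in each library, with black ticks at group means. The genes were picked because 4T1 replicate 1 stood highest over the other 4T1 libraries in them. In all 6 genes 4T1 replicate 1, the blue circle, is the highest of the 6 libraries, at 4.79 for Fbn1, 44.1 for Col6a2 and 256 for Col6a1.

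Matrix genes outside the 49 were read from lists of the same kind, and those named below a 2-fold change were chosen after their values were seen. The shares over all genes tested were 14.2% higher and 13.7% lower. Of 15 further basement membrane genes 10 were tested, of which 1 was higher and 3 lower (median log2 fold change -0.52). Npnt, a nephronectin gene, was at 303, 186 and 187 normalised CPM in 4T1, against 60.0, 80.1 and 78.7 in CTM (log2 -1.63 ± 0.22 SE, edgeR adjusted p = 0.00286). Tinagl1 was at 371, 621 and 636 in 4T1, against 230, 244 and 237 in CTM (log2 -1.19 ± 0.20 SE, edgeR adjusted p = 0.00579), and Papln also fell. The gene that rose, Col4a4, a chain of kidney collagen IV, was at 0 in all 4T1 libraries and at 0.514, 0.236 and 0.407 in CTM. Its highest deposited count was 35. Col4a4 passed the filter on low counts only through its CTM libraries, so its direction was tied to that filter. Of 37 further interstitial genes 19 were tested, 1 was higher and 1 lower (median -0.65). Emilin2, a glycoprotein of elastic fibres, was at 3.60, 3.86 and 3.10 in 4T1, against 21.5, 24.7 and 28.7 in CTM (log2 2.83 ± 0.17 SE, edgeR adjusted p = 0.000314). Ogn, the small proteoglycan that fell, was at 8.93 in 4T1 replicate 1 and below 0.88 in every other library. Its CTM libraries alone would not have passed the filter, so its direction was also tied to it.

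Enzymes that modify and process collagen moved in both directions, 4 higher and 4 lower of 21 tested (median log2 fold change -0.13). For these enzymes and the receptors below, the shares over all genes tested were 14.2% higher and 13.7% lower. P4ha1 and P4ha2, catalytic subunits of the collagen prolyl hydroxylase, rose by log2 1.95 ± 0.09 and 2.39 ± 0.19 (SE), P4hb, its other subunit, by 1.85 ± 0.065, and the lysyl hydroxylase Plod2 by 1.18 ± 0.21. The procollagen enhancers Pcolce and Pcolce2 fell by 0.87 ± 0.11 and 1.05 ± 0.19 on the log2 scale, the procollagen proteinase Bmp1 by 0.70 ± 0.12 and the crosslinking oxidase Loxl3 by 1.06 ± 0.14. For these 8 enzymes the adjusted p of edgeR ran from 0.000115 (P4hb) to 0.00758 (Pcolce2). The collagen chaperone Serpinh1 overlapped at 416 to 691 normalised CPM in 4T1 and 481 to 579 in CTM. Of 18 tested receptors of the matrix 4 were higher, Cd44, Itga2, Sdc2 and Sdc3, and 4 lower, Itga1, Itga3, Itgb1 and Bcam. Itga3, the partner of Itgb1 in a laminin receptor, was at 1300, 1556 and 1599 in 4T1, against 679, 549 and 568 in CTM (log2 -1.31 ± 0.12 SE, edgeR adjusted p = 0.000913). Sdc3 was at 135, 87.7 and 98.7 in 4T1, against 237, 190 and 199 in CTM (log2 0.96 ± 0.18 SE, edgeR adjusted p = 0.00789).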

How the data were processed

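RNA of the 6 libraries was harvested with a SMART-Seq ultra low input kit and sequenced, according to the protocols in the labels. Bowtie 0.12.2, HISAT2 2.0.4, edgeR and mm8 are listed, with no role or order, per the submitters' processing notes. No counting tool is stated. The deposited values are estimated counts per Ensembl gene, already whole numbers. Low values pile up at multiples of 4 (956 genes at 4 in 4T1 replicate 1, 391 at 3), so counting error may be larger than the totals imply. Symbols were found for 52073 identifiers.

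Groups were taken from the library descriptions. After filterByExpr 16414 genes remained, TMM factors ran from 0.952 to 1.04, and edgeR 4.0.16 (R 4.3.3) gave a two-sided quasi-likelihood test on all 6 libraries, with no block, and Benjamini-Hochberg adjustment over all genes tested and a threshold of 0.05. SE were taken from the F statistic. SD are over the 3 values of a group. Levels per kilobase use the union of GENCODE M21 exons, which may differ from the annotation counted. The fit was tested on simulated data. Libraries numbered 2 and 3 were compared by chi-square per gene on counts divided by 4 (3.32 in 4T1, 4.51 in CTM, 25.9 to 75.1 for other pairs within a group) and were kept as separate samples. Alternatives used DESeq2 1.42.0, limma 3.58.1 voom, other scaling, filters, a block and fewer libraries. The members, lists, naming rule and alternatives were chosen with earlier results of these data known. The rule names every member, gives each library's value for called members that changed at least 2-fold without overlap, and names other genes only from the lists, where they passed and changed at least 2-fold or where a marker of another cell type moves with a result. The values of some listed genes are not reported here.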

Additional observations from a re-analysis of the deposited data

How the results depend on the processing

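Against 7 members higher and 8 lower, the counts were 13 and 13 without both libraries numbered 1, 1 and 4 with the libraries numbered 2 and 3 of a group averaged to 1 sample, 0 and 5 with a 2-fold minimum, and 10 and 14 by limma voom. Lower members numbered 5 without a filter and 5 with at least 5 CPM in 3 libraries. Basement membrane genes, 4 higher and 2 lower, became 7 and 4, 1 and 1, and 0 and 1 in the first 3 of these settings, with 4 lower by voom, 1 without a filter and 1 with 5 CPM. Interstitial genes, 3 higher and 5 lower, became 6 and 7, 0 and 2, and 0 and 3, with 8 lower by voom, 3 without a filter and 3 with 5 CPM. The 2-fold minimum calls fewer genes by construction, and averaging leaves fewer samples. The 5 CPM filter removed Nid1, Col1a1 and Fbn1 from the test, and the other 5 lower members still passed under it. The cause of the other moves was not tested. Leaving out 1 library gave 3 to 9 members higher and 4 to 7 lower, 3 to 5 and 1 to 3 in the basement membrane, and 0 to 4 and 2 to 4 in the interstitial matrix. The most were called without 4T1 replicate 1, and the fewest higher members without 4T1 replicate 2 or 3. Col8a1, Mgp, Nid1 and Sparc kept their calls in every alternative that tested them, with averaging included (edgeR adjusted p = 0.0401, 0.0495, 0.0485 and 0.0446). Lamb2 lost its call by the 2-fold minimum alone. Hspg2 and Lama5 lost theirs by it and by averaging (0.0604 and 0.0846).

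No called member changed sign in any alternative run. Members that did not pass changed sign as follows, in log2 fold change. By library totals alone Col5a1 was at -0.017, Lama4 at -0.058, Sdc1 at -0.058 and Sdc4 at -0.023. By voom Col1a2 was at 0.19, Col4a2 at 0.072, Col5a1 at -0.0017, Col6a1 at 0.31, Col6a2 at 0.33, Lama4 at -0.083, Lamb3 at 0.37, Fbln1 at -2.28, Sdc4 at -0.0063 and Thbs2 at 0.74. Without both libraries numbered 1 Col1a2 was at 0.26, Col4a2 at 0.078, Col5a1 at -0.013, Col6a1 at 0.35, Col6a2 at 0.42, Lama4 at -0.055, Lamb3 at 0.38, Fbln1 at -0.96, Sdc4 at -0.018 and Thbs2 at 0.94. In that fit Col6a1, Lamb3 and Thbs2 were called higher. Their lowest edgeR adjusted p over the alternatives were 0.00253, 0.00873 and 0.0144. Averaged, Col7a1 was at 0.086 and Sdc1 at -0.0085. Leaving out 1 library moved Col1a2 from -0.47 to 0.065, Col4a2 from -0.14 to 0.13, Col5a1 from -0.016 to 0.14, Col6a1 from -0.54 to 0.45, Col6a2 from -1.16 to 0.58, Col7a1 from -0.26 to 0.0497, Fbln1 from -0.36 to 1.51, Lama4 from -0.17 to 0.16, Lamb3 from -0.36 to 0.67, Sdc1 from -0.078 to 0.23, Spp1 from -0.22 to 0.0053, Thbs2 from -1.32 to 0.55 and Vcan from -0.56 to 1.30.

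Whether the replicate numbers pair the libraries was not settled. Deviations from the group means correlated at 0.123, 0.0713 and 0.0385 for equal numbers and from -0.122 to 0.129 for unequal ones. In the 4T1 group replicates 1 and 2 correlated best with the CTM library of the same number, and replicate 3 with CTM replicate 2. With the replicate block 7 members were higher and 7 lower, 5 and 2 in the basement membrane and 2 and 4 in the interstitial matrix, with Lamb3 at 0.091 and Vcan at -0.056. DESeq2 gave 7 and 9, and counts divided by 4 gave 8 and 7. Depth limits the members below 1 CPM, for which 1 fragment may be worth several counts.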

Other observations

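In 4T1 replicate 1 some listed genes outside the matrix members stood above the other 4T1 libraries. Igfbp7, an insulin-like growth factor binding protein, was at 225 normalised CPM there, at 13.9 and 16.3 in 4T1 replicates 2 and 3, and at 7.76 to 9.92 in CTM. Thbs1 was at 407 there against 115 and 114, Loxl4 at 381 against 112 and 103, and Thbs3 at 85.8 against 20.8 and 19.3. Col14a1 was at 5.04 against 0.664 and 0.401, Csf1r at 32.6 against 0.692 and 0.595, and Cdh1, the epithelial cadherin gene, at 113 against 27.8 and 31.0. The leukocyte genes differed in direction. Itgb2 and Ptprc were lower there, Itgb2 being at 148 there against 219.8 and 214, and Ptprc at 0 against 0.221 and 0.277. Lcp1 was higher there, at 18.5 against 8.86 and 8.66, as was Coro1a, at 2.11 against 1.54 and 1.81. Cd53 and Cd52 were also highest there, though near 0 in all 4T1 libraries. These genes were chosen after their values were seen.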
